A study of Mus musculus with 2 samples.

Results

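Mature neutrophils without an interferon signature were followed in single-cell RNA sequencing of immune cells from mouse liver metastases. The cells were selected on measured transcripts: S100a8 and S100a9 together at least 30 per 10000 UMIs (unique molecular identifiers, 1 for each RNA molecule captured), a UMI of at least 2 of the 5 genes G0s2, Hdc, Csf3r, Clec4d and Cxcr2, at most 1 UMI of the granule genes Ngp, Camp and Ltf together, 0 UMIs of Cd3e, Cd79a and Adgre1, and a UMI of fewer than 2 of the 5 interferon-response genes Cxcl10, Gbp2, Gbp4, Irgm1 and Isg15. This rule took 1257 of 19999 filtered cells, 128 of them in Ctrl and 1129 in KD.

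The tumor cells, MC38-LM3b, had been isolated from serial liver metastases of MC38, a mouse colorectal cancer line, and were injected into the spleens of C57BL/6 mice aged 6 to 8 weeks. They carried a scrambled short hairpin RNA (shScramble, Ctrl) or one against SLAMF3 (shSLAMF3, KD). Liver metastases were taken after 2 weeks and CD45+ cells were isolated by positive selection. Each group was 1 library, pooled from 3 mice, and the hairpin was carried by the tumor cells and not by the neutrophils of the host.

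Because each group held 1 library, there was no replicate error and no test. All intervals below are 95% intervals for counting error only, and a difference between Ctrl and KD is a difference between these 2 libraries. The libraries held 10416 and 10943 cell barcodes, with 67207234 and 64444715 UMIs in Ctrl and KD. They shared 27 barcodes, none of them of a mature neutrophil.

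Neutrophils are short-lived granulocytes that mature in the bone marrow, where they fill their granules in sequence, and leave it as cells that no longer make most granule proteins. In blood they carry transcripts of late granule proteins, adhesion molecules and receptors for chemoattractants. In tumors, neutrophils have been described in states that differ from those in blood, with more transcripts of inflammatory mediators and of the checkpoint ligand PD-L1. Type I and type II interferons induce a further set of genes in them, and the cells followed here were chosen to be low in it.

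To show regulatory sequence beside the values, promoters are printed for 6 genes whose levels differed between the libraries or that belong to the same cluster of related genes. They are RefSeq sequences of the build GRCm38.p6, from 250 bases before to 50 bases after the annotated start, written 5′ to 3′ on the strand of the gene. Capitals mark matches, on either strand, to GGANTTNCC (NF-kB), TTCNNNGAA (GAS), GAAA, any 2 bases and GAAA (ISRE) or TTNNGCAA (C/EBP).
Lcn2: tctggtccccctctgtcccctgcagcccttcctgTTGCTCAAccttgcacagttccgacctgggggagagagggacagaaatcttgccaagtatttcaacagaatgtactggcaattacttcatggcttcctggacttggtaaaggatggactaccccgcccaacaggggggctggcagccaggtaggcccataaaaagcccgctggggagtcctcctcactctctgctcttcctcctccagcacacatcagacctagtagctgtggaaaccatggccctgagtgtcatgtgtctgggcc
Anxa1: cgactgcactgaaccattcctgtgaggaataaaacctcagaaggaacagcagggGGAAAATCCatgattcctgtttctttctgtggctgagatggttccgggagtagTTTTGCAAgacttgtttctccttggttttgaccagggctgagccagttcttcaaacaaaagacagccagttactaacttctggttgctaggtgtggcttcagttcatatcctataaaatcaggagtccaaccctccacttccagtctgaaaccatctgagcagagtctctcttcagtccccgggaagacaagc
Saa3: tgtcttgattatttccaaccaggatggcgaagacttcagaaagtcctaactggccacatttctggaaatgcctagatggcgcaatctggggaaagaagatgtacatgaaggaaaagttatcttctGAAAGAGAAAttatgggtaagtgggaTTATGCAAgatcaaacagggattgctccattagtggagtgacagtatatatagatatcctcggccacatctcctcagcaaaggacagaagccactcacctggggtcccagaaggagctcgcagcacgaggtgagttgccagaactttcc
Ccrl2: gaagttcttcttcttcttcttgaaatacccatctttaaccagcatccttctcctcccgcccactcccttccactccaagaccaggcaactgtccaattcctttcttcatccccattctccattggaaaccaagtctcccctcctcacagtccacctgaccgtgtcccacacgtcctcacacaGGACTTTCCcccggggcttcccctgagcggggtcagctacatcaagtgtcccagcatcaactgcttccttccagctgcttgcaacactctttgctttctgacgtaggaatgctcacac
Stfa2: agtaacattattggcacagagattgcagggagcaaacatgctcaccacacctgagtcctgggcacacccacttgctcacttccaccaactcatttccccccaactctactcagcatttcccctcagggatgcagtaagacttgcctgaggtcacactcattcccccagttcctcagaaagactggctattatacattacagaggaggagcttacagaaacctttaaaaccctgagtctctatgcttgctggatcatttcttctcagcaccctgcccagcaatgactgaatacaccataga
Stfa2l1: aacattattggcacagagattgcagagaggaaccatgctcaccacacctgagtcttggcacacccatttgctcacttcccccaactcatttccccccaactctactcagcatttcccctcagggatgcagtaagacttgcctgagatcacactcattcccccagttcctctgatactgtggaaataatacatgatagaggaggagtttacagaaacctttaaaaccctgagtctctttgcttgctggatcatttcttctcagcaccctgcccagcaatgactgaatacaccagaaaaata
The positions are chr2:32387690-32387989, minus strand for Lcn2, chr19:20390622-20390921, minus strand for Anxa1, chr7:46715627-46715926, minus strand for Saa3, chr9:111057469-111057768, minus strand for Ccrl2 (1 of its 3 starts), chr16:36408314-36408613, minus strand for Stfa2 and chr16:36156561-36156860, plus strand for Stfa2l1. The counting itself was done by the authors against another build, GRCm39, so no count is tied to these positions. At the other starts of Ccrl2 none of these motifs matched. The promoters of Cd274, Nr4a3, Il1rn and Ccl3, also lower in KD, had no match, and that of Ptgs2 had only a C/EBP match. A match describes letters only and is not a site.

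The cells carried the defining transcripts of neutrophils that the rule did not use. Retnlg, which encodes a resistin-like secreted protein of neutrophils, had 2786 counts per 1000000 UMIs of the class (CPM) in Ctrl and 7144 in KD, against 1.39 and 12.7 CPM in T cells. Il1r2, the decoy receptor for interleukin-1, had 1525 CPM and 1522 CPM, against 37.0 and 59.0 CPM in T cells. Ly6g, the surface antigen by which mouse neutrophils are stained, had 125 and 160 CPM, Trem1 had 839 and 842 CPM, and Fpr1, a receptor for formylated bacterial peptides, had 320 and 341 CPM. All 16 neutrophil genes outside the rule passed the minimum of 100 UMIs over both libraries that was set for measuring a ratio.

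Summed over members, most markers of other cells were low or at 0, but they were not confined to few members. Of 128 Ctrl and 1129 KD members, only 69 and 735 had no UMI of a 12-gene panel of other cell types. The 9 eosinophil markers together had 9 UMIs in Ctrl and 68 in KD, with 6 of the 9, Epx and Prg2 among them, at 0 in both libraries, and the 10 markers of basophils and mast cells had 1 and 99 UMIs, of which Kit gave 1 and 95. The 12 macrophage markers summed to 176 and 2099 UMIs, the 8 monocyte markers to 98 and 1188, the 12 T and NK cell markers to 29 and 663, the 7 B cell markers to 67 and 1279, the 8 hepatocyte markers to 36 and 303 and the 11 tumor and stromal markers to 7 and 361, where the class held 11.36 times as many UMIs in KD. The T cell genes Cd3d and Trac had 3 and 0 UMIs in Ctrl and 32 and 19 in KD. The macrophage markers C1qa, C1qb and C1qc had 94.02, 94.02 and 76.6 CPM in Ctrl and 77.0, 92.0 and 55.8 CPM in KD, where C1qb had 3933 and 3601 CPM in macrophages. Of the 33 gene lists used, those of eosinophils, basophils and mast cells, dendritic cells and erythroid cells had no measured gene.

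To place the class among neutrophils, its share was set beside those of 2 other gates: interferon-high neutrophils, which met the same rule but had at least 2 of the 5 interferon genes, and immature neutrophils, which had over 1 UMI of Ngp, Camp and Ltf. Of the filtered Ctrl cells, 1.30% (1.09% to 1.55%) were mature neutrophils without the signature. The KD share was 11.1% (10.5% to 11.7%), higher by 9.78 percentage points (9.13 to 10.4). Interferon-high neutrophils made up 3.73% (3.36% to 4.12%) and 4.73% (4.33% to 5.16%), and immature neutrophils 0.336% (0.232% to 0.472%) and 3.09% (2.77% to 3.45%). Among all mature neutrophils, those without the signature were 128 of 494 cells in Ctrl, or 25.9% (22.1% to 30.01%), and 1129 of 1611 cells in KD, or 70.1% (67.8% to 72.3%). A gate can have a larger share because another has a smaller one.

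**Figure D1:**
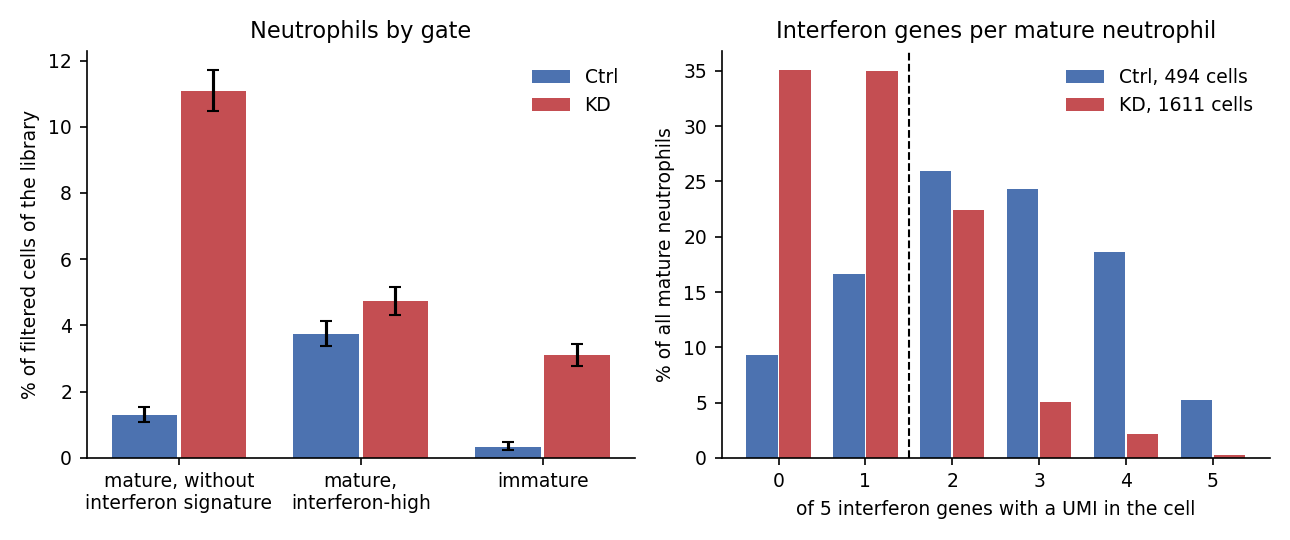
Left, the share of filtered cells (%, with exact 95% counting intervals) in each neutrophil gate for Ctrl and KD. Right, the share of all mature neutrophils (%) by how many of the 5 interferon genes had a UMI, with the dashed line at the limit of the rule; the 494 Ctrl cells peak at 2 genes and the 1611 KD cells at 0 and 1.

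The limit on interferon genes cut the libraries at different points of their distributions. In Ctrl, 46 mature neutrophils had none of the 5 genes, 82 had 1, 128 had 2, 120 had 3, 92 had 4 and 26 had 5. In KD, 565 had none, 564 had 1, 361 had 2, 82 had 3, 35 had 4 and 4 had 5. The Ctrl members were therefore the low end of the mature neutrophils of their library, and the KD members were most of theirs. At the other limits, 3 Ctrl and 18 KD members had 30 to under 40 UMIs of S100a8 and S100a9 per 10000, against 6 and 27 cells with 20 to under 30 that met the rest of the rule. Members with exactly 2 of the 5 neutrophil genes numbered 5 and 68, against 0 and 23 cells with 1, and members with 1 UMI of Ngp, Camp and Ltf numbered 2 and 116, against 0 and 49 cells with 2.

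The members had a median of 2165 UMIs and 909.5 genes per cell in Ctrl and 2658 UMIs and 1032 genes in KD. Mitochondrial transcripts took a median of 1.08% and 1.61% of their UMIs. Summed over cells, the class held 287178 UMIs in Ctrl and 3261230 in KD, 11.36 times as many. Precision is therefore set by Ctrl, where 3 counts, taken as the limit that a count of 0 allows, are worth 10.45 CPM. S100a8 and S100a9, which encode the subunits of calprotectin and chose the cells, took 6.13% of UMIs in Ctrl and 7.34% in KD.

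To compare the libraries within the class, the log2 ratio of CPM, KD over Ctrl, was taken for the 3575 genes with at least 100 UMIs over both. Its median over these genes was 0.11, with quartiles of -0.27 and 0.50. A log2 ratio of at least 1 was reached by 287 genes (8.03% of those measured) and one of at most -1 by 128 genes (3.58%). Counts within the gene lists below are to be read beside these shares, and some genes belong to several lists. The lists were chosen with earlier results of these data known, so their counts and medians are descriptions. For 216 of the 287 and for all 128, the counting interval lay to the same side of 0. The UMI minimum is met more easily by a gene high in KD, the larger class, since a gene of equal level has 8.09 UMIs in Ctrl at the minimum. With a minimum of 30 on the mean of both CPM instead, 179 genes lay higher and 163 lower, so the split between directions rests on the filter. The contrast in counting intervals rests on it too, since at the UMI minimum a lower gene has more Ctrl UMIs than a higher one.

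**Figure D2:**
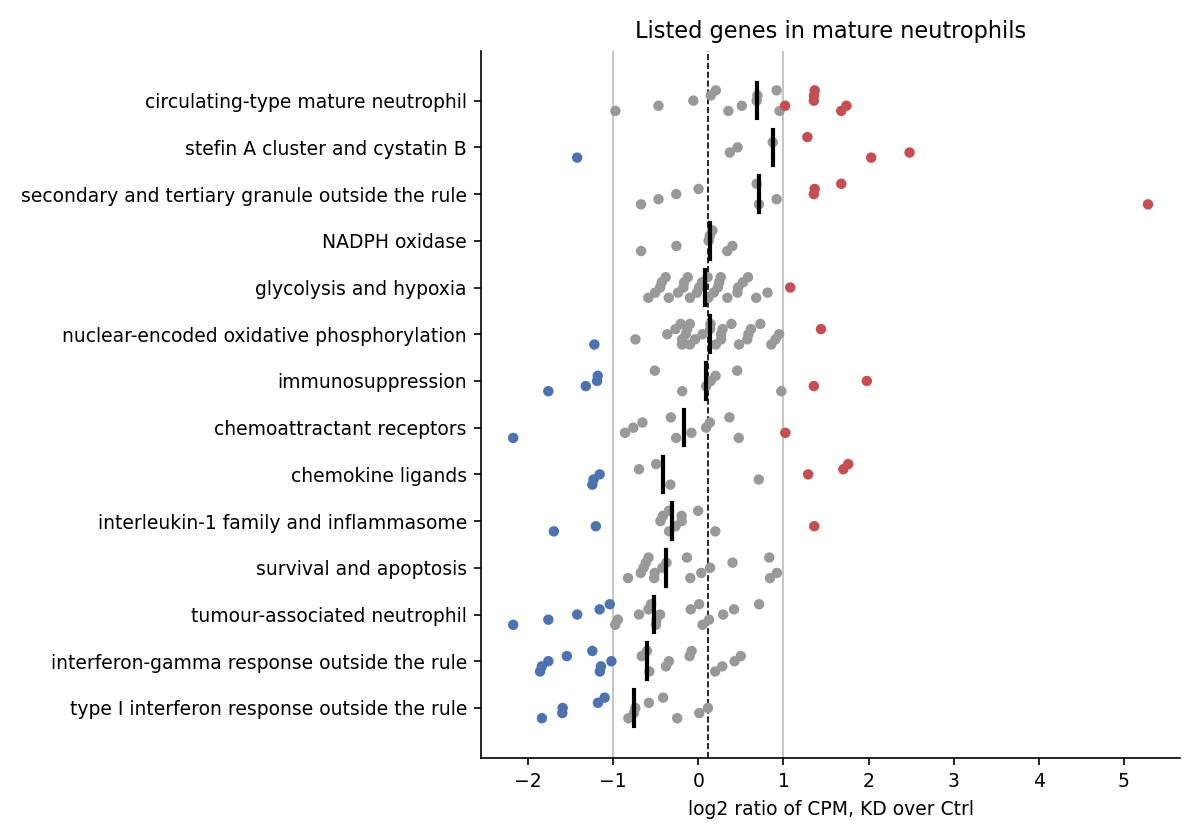
Each point is a gene with at least 100 UMIs in mature neutrophils, placed by its log2 ratio of CPM (KD over Ctrl), in rows by gene list; thick bars are list medians, the dashed line is the median of all 3575 genes (0.11), and red and blue points lie at or beyond 1 and -1. The circulating-type list has its median at 0.69 and the type I interferon list at -0.76. The lists were chosen with earlier results of these data known.

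The circulating-type list was named for transcripts described in neutrophils in blood. Of its 17 genes, 6 had a log2 ratio of at least 1, against 8.03% of all genes measured, and none of at most -1. Intervals lay above 0 for 11 genes and below 0 for 2, and the median was 0.69 against 0.11 over all genes. The 6 were Ifitm6, Anxa1, Cd177, Retnlg, Lcn2 and Wfdc21. Lst1 (-0.98) and Mmp9 (-0.47) had the lowest values of the list.

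Retnlg had 800 Ctrl UMIs (746 to 857) and 23298 KD UMIs (23000 to 23599), a log2 ratio of 1.36 (1.26 to 1.46). Lcn2, the gene of lipocalin 2, which binds bacterial siderophores, had 269 UMIs (238 to 303) and 7823 UMIs (7651 to 7998), or 937 and 2399 CPM, a log2 ratio of 1.36 (1.18 to 1.54). Anxa1 encodes annexin A1, a protein of tertiary granules that restrains inflammation. It had 75 UMIs (59.0 to 94.01) and 2727 UMIs (2626 to 2831), or 261 and 836 CPM, a log2 ratio of 1.68 (1.35 to 2.03). Ifitm6, of the interferon-induced transmembrane family, had 125 CPM from 36 UMIs and 419 CPM from 1366 UMIs, a log2 ratio of 1.74 (1.26 to 2.26). Cd177, a surface glycoprotein of neutrophils, rested on 7 UMIs in Ctrl and 205 in KD, with a log2 ratio of 1.37 (0.30 to 2.70), which was 0.70, under the limit, among members with 0 of the 5 interferon genes.

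The shares of cells with a UMI followed the same order when each cell was thinned to 1000 UMIs, which left 119 Ctrl and 1064 KD members. A Retnlg UMI was found in 46.2% of Ctrl members (37.0% to 55.6%) and 73.3% of KD members (70.5% to 76.0%), an Lcn2 UMI in 36.1% (27.5% to 45.5%) and 62.0% (59.0% to 65.0%), and an Anxa1 UMI in 12.6% (7.23% to 19.9%) and 45.4% (42.4% to 48.4%). Free RNA was read from T cells, where the Retnlg share was 0.337% and 1.46%, that of Lcn2 0.144% and 0.912%, and that of Anxa1 0.433% and 1.37%. Without thinning, the Retnlg shares were 52.3% and 80.2% of members, and 1.202% and 8.90% of T cells, at median depths of 7512 and 6073 UMIs per T cell.

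Several of these genes were far higher in immature neutrophils, at like levels in both libraries. Retnlg had 16009 and 15791 CPM there, Lcn2 10961 and 10563 CPM, and Anxa1 2747 and 2783 CPM. Members with 1 UMI of Ngp, Camp or Ltf were 1.56% of the class in Ctrl and 10.3% in KD, and immature neutrophils were the more frequent in KD too. Among members with 0 such UMIs, 126 in Ctrl and 1013 in KD, the log2 ratio was 1.16 for Retnlg, 1.21 for Lcn2, 1.56 for Anxa1 and 1.53 for Ifitm6, and the median of the list was 0.69. Whether the ratios of this list reflect a blood-type state or lesser maturity was not tested.

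Granule genes other than the 3 of the rule were taken by granule type. Of 11 measured genes of secondary and tertiary granules, 4 had a log2 ratio of at least 1 (Chil3, Anxa1, Cd177 and Lcn2), against 8.03% of all genes. None had one of at most -1, and the median was 0.71. Anxa1, Cd177 and Lcn2 are also counted in the circulating-type list above. Chil3, the gene of a chitinase-like lectin, had 2 Ctrl UMIs (0.242 to 7.22) and 885 KD UMIs (828 to 945), a log2 ratio of 5.28 (3.43 to 8.33). It was also higher outside neutrophils in KD, with 418 and 1853 CPM in monocytes and 1.95 and 19.4 CPM in T cells, and whether free RNA had a part in its ratio was not tested. Hp, which encodes haptoglobin, had a log2 ratio of 0.71 (0.50 to 0.93) and Pglyrp1, a peptidoglycan recognition protein, one of 0.69 (0.45 to 0.93). Mmp9, the gelatinase of tertiary granules (-0.47, -0.68 to -0.25), Cybb (-0.67, -1.15 to -0.16) and the protease inhibitor Slpi (-0.26, -0.37 to -0.15) had intervals below 0. Of 9 listed primary granule genes 3 were measured, with a median of 0.35. Lyz2, the gene of lysozyme, which macrophages also express, had 749 and 863 CPM, a log2 ratio of 0.21 (0.00479 to 0.41), and Ctsc, the protease that activates granule proteases, had 125 and 160 CPM, one of 0.35 (-0.14 to 0.88). Prtn3, the gene of proteinase 3, had 2 and 131 UMIs, a ratio of 2.53 (0.65 to 5.59) that was 0.68 without the 5% of members with most UMIs. Mpo and Elane, which are made early, had 0 UMIs in Ctrl and 6 and 29 in KD.

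The 7 NADPH oxidase genes, whose products make the oxidative burst, did not reach a log2 ratio of 1 in either direction, and their median was 0.13. The shares over all genes, 8.03% and 3.58%, would also give few or none in a list of 7. Rac1, a small GTPase, had 324 and 427 CPM, a log2 ratio of 0.40 (0.10 to 0.72). Cybb, the catalytic subunit, had 143 and 89.5 CPM, a log2 ratio of -0.67 (-1.15 to -0.16). The intervals of Cyba, Ncf1, Ncf4 and Rac2 held 0.

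Stefins, inhibitors of cysteine cathepsins that are encoded in a cluster on mouse chromosome 16, split by member. Stfa2 had 9 Ctrl UMIs (4.12 to 17.1) and 571 KD UMIs (525 to 620), a log2 ratio of 2.48 (1.55 to 3.62). Stfa2 was at 1.01 among members without any of the 5 interferon genes and at 4.57 without the 5% of members with most UMIs. Cstdc5 had 5 and 232 UMIs, a log2 ratio of 2.03 (0.79 to 3.67), and Csta2 had 5 and 138 UMIs, with a ratio of 1.28 (0.02 to 2.93) that fell below 0 among members without an interferon gene. The more abundant Stfa2l1 had 937 and 1289 CPM, a log2 ratio of 0.46 (0.28 to 0.64), and Cstdc4 had 658 and 851 CPM, a ratio of 0.37 (0.16 to 0.59). Under the minimum, Stfa3 had 0 UMIs in Ctrl and 69 in KD, 2.02-fold higher when 3 counts are set for Ctrl. Csta3, also under it, was lower in KD with 8 and 26 UMIs, a ratio of -1.80 (-2.99 to -0.45). Cstb, the stefin outside the cluster, which most cells express, was lower in KD at 453 and 169 CPM, a log2 ratio of -1.42 (-1.70 to -1.14).

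Cluster members are related genes, and whether reads are split between them was not tested. Only promoters were compared. The promoters of Stfa2 and Stfa2l1 printed above had 275 identical bases over 304 aligned positions (90.5%), whereas those of Stfa2 and Csta2 had 169 over 339 (49.9%). Stfa2 and Stfa2l1 differed in their log2 ratios by more than their counting intervals. Stfa2 had 0 CPM in Ctrl T cells and 0.370 CPM in KD T cells, and in immature neutrophils it had 25.6 and 471 CPM.

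Of 24 genes described in tumor-associated neutrophils 20 were measured, and 5 had a log2 ratio of at most -1 (Ccrl2, Cd274, Cstb, Ccl3 and Hcar2), against 3.58% of all genes, and none of at least 1. Intervals lay below 0 for 9 and above 0 for 2, and the median was -0.53. Ccrl2, a non-signaling receptor that binds chemerin, had 603 Ctrl UMIs (556 to 653) and 1515 KD UMIs (1440 to 1593), or 2100 and 464 CPM, a log2 ratio of -2.18 (-2.31 to -2.04). Cd274, which encodes PD-L1, had 333 UMIs (298 to 371) and 1114 UMIs (1050 to 1181), or 1160 and 342 CPM, a log2 ratio of -1.76 (-1.94 to -1.58). Hcar2, a receptor for hydroxybutyrate, had 1173 and 570 CPM, a log2 ratio of -1.04 (-1.21 to -0.87). Not all of the list was lower. Lgals3, the gene of galectin 3, had a log2 ratio of 0.71 (0.40 to 1.04), Plin2, which coats lipid droplets, one of 0.42 (0.15 to 0.70), and Cd14 had 3050 and 3157 CPM, a ratio of 0.05 (-0.05 to 0.15). Siglecf, a marker of one such state, had 6 and 46 UMIs and was not measured.

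At 1000 UMIs per cell, a Ccrl2 UMI was found in 54.6% of Ctrl members (45.2% to 63.8%) and 24.0% of KD members (21.4% to 26.7%), against 4.48% and 4.47% of T cells. A Cd274 UMI was found in 48.7% (39.5% to 58.1%) and 25.3% (22.7% to 28.0%), against 7.99% and 7.66% of T cells, which can express the gene themselves. Before thinning these shares were 68.8% and 38.7% of members for Ccrl2 and 65.6% and 42.2% for Cd274.

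Both lists varied widely from cell to cell. At 1000 UMIs per cell, the circulating-type list had a median of 9 UMIs in Ctrl members (quartiles 6 and 17) and 19 in KD members (11 and 30.2), and the tumor-associated list 15 (9.5 and 22.5) and 10 (6 and 16). The ranges overlapped broadly, as 10% of Ctrl members had at least 24.2 UMIs of the circulating-type list and 10% of KD members had at most 6. Across cells, the 2 lists had a Spearman rho of -0.33 in Ctrl (119 cells) and -0.26 in KD (1064 cells), where both are parts of the same 1000 UMIs.

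**Figure D3:**
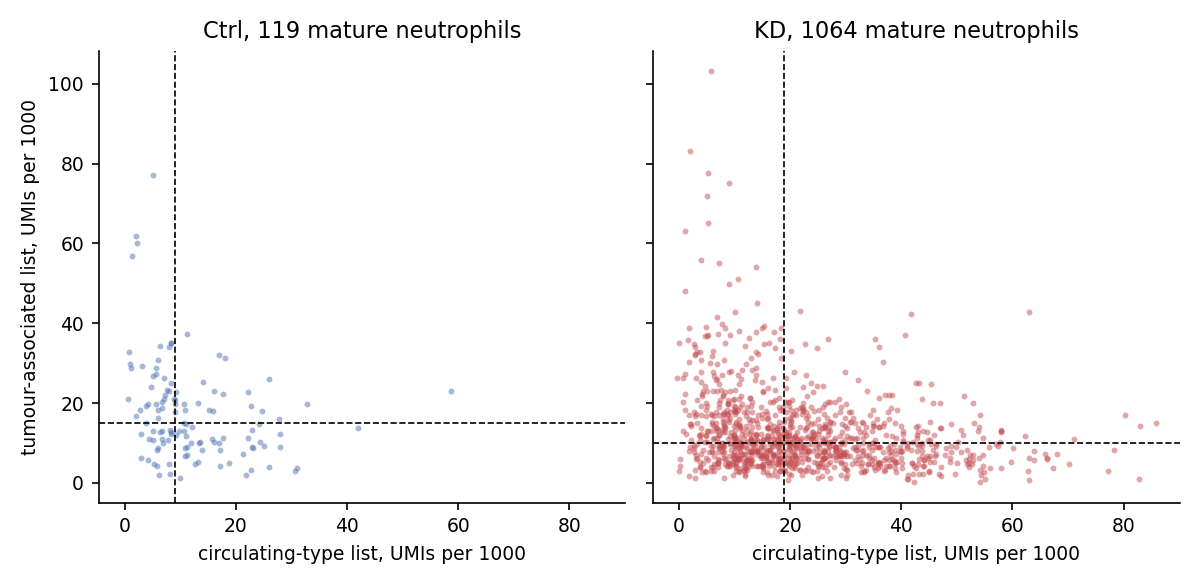
Each point is a mature neutrophil thinned to 1000 UMIs, with its UMIs of the circulating-type list on the x axis and of the tumor-associated list on the y axis, for Ctrl and KD; dashed lines are medians. The medians are 9 and 15 UMIs in Ctrl and 19 and 10 in KD, and the clouds overlap.

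Cytokine and chemokine genes were mixed. Among 10 measured chemokine ligands, Ccl9, Ccl5 and Ccl2 had log2 ratios of at least 1, against 8.03% of all genes. Ccl3, Cxcl1 and Cxcl9 had ratios of at most -1, against 3.58%. The median was -0.41, or 0.93 among members with 0 of the 5 interferon genes. The ratio of Ccl9 was 0.16 with thinned cells. Cxcl2, which attracts neutrophils through CXCR2, had 15631 and 11082 CPM, a log2 ratio of -0.50 (-0.54 to -0.45). Ccl3 had 1403 and 628 CPM, a ratio of -1.16 (-1.31 to -1.002), and Ccl4 2357 and 1453 CPM, a ratio of -0.70 (-0.81 to -0.58). Ccl6 had 641 and 1048 CPM, a ratio of 0.71 (0.50 to 0.93). The ratio of Ccl5, 1.70 from 10 and 370 UMIs, became -0.67 without the 5% of members with most UMIs and -1.11 without members that carried a UMI of 12 marker genes of other cells. T cells had 2912 and 3751 CPM of Ccl5.

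Among 12 measured genes of the interleukin-1 family and the inflammasome, the median was -0.31. Il1rn, the gene of the interleukin-1 receptor antagonist, had 232 Ctrl UMIs (203 to 264) and 812 KD UMIs (757 to 870), or 808 and 249 CPM, a log2 ratio of -1.70 (-1.91 to -1.48). Nlrp3, the inflammasome sensor, had 1410 and 612 CPM, a ratio of -1.205 (-1.36 to -1.05). Il1b had 7219 and 5403 CPM, a smaller difference with a ratio of -0.42 (-0.48 to -0.35). Pycard, the inflammasome adaptor, had 10 and 292 UMIs and a ratio of 1.36 (0.46 to 2.44), which was -0.15 among members without an interferon gene. Tnf had a ratio of 0.13 (-0.30 to 0.58), and Il10 had 17 and 85 UMIs, a ratio of -1.18 (-1.95 to -0.34) that was -0.62 with thinned cells.

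Of 13 measured genes linked to immunosuppression, 2 had log2 ratios of at least 1 (Nos2 and Lcn2), against 8.03% of all genes. At most -1 was reached by 4 (Cd274, Acod1, Ptgs2 and Il10), against 3.58%, and the median was 0.09. Lcn2 and Cd274 are also counted in lists above. Ptgs2, which encodes COX-2, had 235 UMIs (206 to 267) and 1170 UMIs (1104 to 1239), or 818 and 359 CPM, a ratio of -1.19 (-1.39 to -0.98), which was -0.91 among members with 0 of the 5 interferon genes. Acod1, the enzyme that makes itaconate, had 4924 and 1968 CPM, a ratio of -1.32 (-1.41 to -1.24). Wfdc17, a small secreted protein with a whey acidic protein domain, had 3238 and 6363 CPM, a ratio of 0.97 (0.88 to 1.07). Arg2 had 919 and 806 CPM, a ratio of -0.19 (-0.37 to -0.00144). Arg1 had 0 and 88 UMIs, under the minimum, and was 2.58-fold higher in KD when 3 counts are set for Ctrl. Nos2, inducible nitric oxide synthase, had 5 and 224 UMIs, a ratio of 1.98 (0.74 to 3.62), and this was 0.16 with no limit on interferon genes.

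Among the lipid mediator enzymes, Alox5ap, which presents arachidonate to 5-lipoxygenase, had 930 and 2033 CPM, a log2 ratio of 1.13 (0.95 to 1.31). It was also higher in KD in macrophages, at 302 and 527 CPM. Alox5 itself had a ratio of 0.11 (-0.65 to 0.98).

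Few receptor genes were past the limits, as few would be in short lists at the shares over all genes, 8.03% and 3.58%. Of 12 measured chemoattractant receptors, Ltb4r1, the leukotriene B4 receptor, had a log2 ratio of 1.02 (0.28 to 1.88; 0.19 with no limit on interferon genes) and Ccrl2 one below -1, with a median of -0.17. Cxcr4, which retains neutrophils in the bone marrow and is higher on aged cells, had 759 and 481 CPM, a ratio of -0.66 (-0.86 to -0.45). Cxcr2, which chose the cells, had 414 and 544 CPM. Fpr1, Fpr2 and C5ar1 had ratios of 0.09, 0.13 and -0.08, with intervals that held 0. Of 18 measured Fc and pattern recognition receptors, Tlr6 passed -1 at -1.40 (-2.12 to -0.62) on 20 and 86 UMIs (-0.94 with no limit on interferon genes), Clec7a, the beta-glucan receptor dectin-1, had a ratio of -0.92 (-1.08 to -0.76), and the median was -0.22. Among 11 adhesion genes Cd177 alone passed 1, and the median was 0.06.

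Of 23 measured transcription factors, Xbp1 and Klf2 were at or above 1, against 8.03% of all genes. Nfkb1 was at or below -1, against 3.58%, and the median was -0.19. Klf2, a factor of quiescence, had 105 Ctrl UMIs (85.9 to 127) and 3114 KD UMIs (3006 to 3225), a log2 ratio of 1.39 (1.10 to 1.68). Its ratio was 1.32 in interferon-high neutrophils, 1.49 in immature neutrophils, 1.62 in monocytes, 0.74 in macrophages and 1.002 in T cells, so it was not limited to the class. Nfkb1, a subunit of NF-kB, had 832 and 339 CPM, a ratio of -1.30 (-1.50 to -1.09). Cebpb, a factor of granulocyte maturation, had 8935 and 7830 CPM, a ratio of -0.19 (-0.25 to -0.13). Of 21 measured immediate early and heat shock genes Fosb alone passed the limit, at -1.72 (-2.05 to -1.38), against 3.58% of all genes. Their median was -0.07, and Fos and Junb had ratios of -0.03 and -0.27.

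For genes of survival and metabolism, counts stand beside 8.03% of all genes at or above 1 and 3.58% at or below -1. At those shares few genes would pass in lists this short. None of 17 survival and apoptosis genes passed the limit (median -0.38), and Mcl1, which keeps neutrophils alive, had 3465 and 2672 CPM, a log2 ratio of -0.38 (-0.47 to -0.28). Of 28 glycolysis and hypoxia genes 1 passed it, Ankrd37 at 1.08 (0.13 to 2.23), which was 0.05 among members with 0 of the 5 interferon genes, with a median of 0.08, and Gapdh had a ratio of 0.68 (0.46 to 0.91). Of 29 nuclear genes of oxidative phosphorylation, Sdhd was above 1 and Atp5md below -1 (0.84 and -0.86 with no limit on interferon genes), with a median of 0.14. The target of the hairpin, Ly9, had 2 and 13 UMIs in these host cells, which does not check the labels, and the SLAM family members Cd84 and Cd244a had ratios of 0.15 (-0.20 to 0.51) and 0.48 (-0.02 to 1.01).

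Interferon-response genes outside the rule were lower in KD even among cells chosen for a low signature. Of 13 measured type I genes 5 had a log2 ratio of at most -1 (Rsad2, Slfn5, Ifi47, Rtp4 and Ifih1), against 3.58% of all genes. None had one of at least 1, and the median was -0.76. Of 19 measured interferon-gamma genes 8 were at or below -1, against the same 3.58%, and the median was -0.60. Among them were Nlrc5 at -1.86 (-2.34 to -1.35) and Igtp, an immunity-related GTPase, at -1.84 (-2.46 to -1.18). Rsad2, which encodes the antiviral enzyme viperin, had 51 and 162 UMIs, a ratio of -1.84 (-2.30 to -1.35). The 2 lists are related to the 5 genes of the limit, and the medians were -1.26 and -1.35 with no limit on interferon genes and -0.59 and -0.39 among members with 0 of the 5. Both Ifitm3 (0.11, -0.04 to 0.27) and Trim30a (0.01, -0.31 to 0.35) had intervals that held 0. Beside this, the members with 1 of the 5 limit genes were 64.1% in Ctrl and 49.96% in KD.

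A fixed rule named the 12 highest and the 12 lowest log2 ratios among genes with at least 200 UMIs that were not far more abundant in another class. The highest were Saa3, Sfr1, Pam, Stfa2, Xbp1, Tcf20, Cstdc5, Nos2, Ppp1r15b, Oat, Kidins220 and Spen, and each had at most 10 UMIs in Ctrl. Saa3, the gene of an acute-phase serum amyloid, had 3 Ctrl UMIs (0.619 to 8.77) and 2426 KD UMIs (2330 to 2525), a ratio of 6.15 (4.60 to 8.43). In KD these UMIs came from 128 of 1129 cells (11.3%), and at 1000 UMIs per cell from 9.12% of members (7.46% to 11.01%) against 0.729% of T cells. In Ctrl 3 of 128 members (2.34%) had a UMI before thinning and 0 of 119 after it, where 3 counts at that depth would be 2.52%. Xbp1, a factor of the unfolded protein response, had 8 and 501 UMIs, a ratio of 2.46 (1.47 to 3.68), and Pam, an enzyme that amidates peptides, had 4 and 269 UMIs, a ratio of 2.57 (1.19 to 4.45). With no limit on interferon genes, the ratios of Xbp1, Tcf20, Kidins220, Oat and Nos2 were 0.90, 0.93, 0.92, 0.61 and 0.16, below 1, and that of Saa3 was 2.66.

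The lowest were Nr4a3, Ccrl2, Hspa4l, Vps37b, Slc38a1, Cwc25, Asph, Olr1, Cd274, Fosb, Il1rn and Tgif1, with at least 58 UMIs each in Ctrl. Nr4a3, an orphan nuclear receptor induced by activation, had 178 UMIs (153 to 206) and 335 UMIs (300.1 to 373), or 620 and 103 CPM, a log2 ratio of -2.59 (-2.86 to -2.32). Its share of cells at 1000 UMIs was 40.3% (31.4% to 49.7%) and 8.65% (7.03% to 10.5%), against 16.9% and 19.2% of T cells, which express it. Olr1, a receptor for oxidized low-density lipoprotein that has been used to mark suppressive neutrophils, had 254 and 69.9 CPM, a ratio of -1.86 (-2.25 to -1.46). All 12 stayed at or below -1 in each of the 12 alternatives run on single genes.

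**Figure D4:**
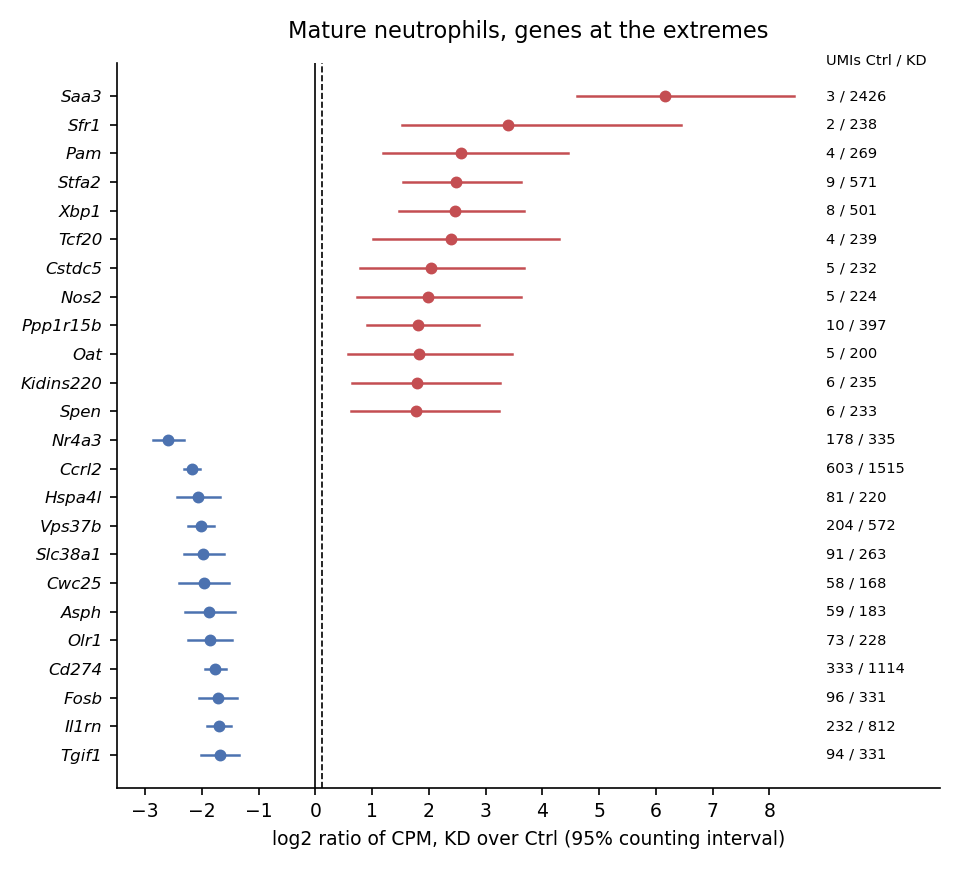
Points are the log2 ratios of CPM (KD over Ctrl) in mature neutrophils of the 12 highest and 12 lowest genes by the naming rule, lines are 95% counting intervals, the dashed line is the median of all genes (0.11), and the numbers at the right are UMIs. Saa3 lies highest at 6.15 on 3 Ctrl UMIs, and the lower genes, which have 58 or more Ctrl UMIs, have narrower intervals.

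Of the measured genes, 3 had 0 UMIs in Ctrl, and these were noticed after their values were seen. Prnp, which encodes the prion protein, had 194 UMIs in KD (168 to 223), 5.69-fold higher when 3 counts are set for Ctrl. A Prnp UMI was found in 5.64% of thinned KD members (4.33% to 7.20%), against 0 of 1097 KD T cells (interval up to 0.336%). Stab2 and Ptprb are endothelial genes, with 133 and 152 UMIs in KD. In KD, Stab2 had 40.8 CPM in members and 36.6 CPM in T cells, and Ctrl T cells had 3.12 CPM of it. Gzma, a granzyme of cytotoxic lymphocytes, likewise had 2 and 336 UMIs, where T cells had 292 and 1534 CPM. The part of free RNA in the ratios of these genes was not tested.

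Values in interferon-high neutrophils, a gate with no shared cell, were set side by side with those of the members. Retnlg had 1760 and 5349 CPM there, a log2 ratio of 1.60 (1.53 to 1.68), and Lcn2 645 and 1754 CPM, one of 1.44 (1.32 to 1.57). Ccrl2 had 2782 and 909 CPM, a ratio of -1.61 (-1.70 to -1.52), Cd274 2380 and 785 CPM, one of -1.60 (-1.70 to -1.50), and Nr4a3 529 and 142 CPM, one of -1.90 (-2.13 to -1.67). Saa3 had 143 and 644 CPM, a ratio of 2.17 (1.91 to 2.44), and its Ctrl level was above that of the members (log2 -3.78, -6.07 to -2.20, members over interferon-high) while its KD level was slightly below it (0.21, 0.11 to 0.31). Both gates come from the same 2 libraries, so they are not independent.

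Within each library, members and interferon-high neutrophils differed in the genes of the limit and their relatives. Of 4918 genes measured in both gates together, 0 (0%) were higher by a log2 ratio of 1 in members in both libraries and 101 (2.05%) were lower. The lowest outside the rule were Ifit2, Ifit1, Ifit3, Ifi47, Gbp5 and Gbp3, whose direction the limit fixes. Cd274 was lower in members by -1.04 (-1.21 to -0.87) in Ctrl and -1.20 (-1.32 to -1.08) in KD, and Nampt, a cytokine-like enzyme of NAD synthesis, by -1.99 (-2.30 to -1.71) and -1.20 (-1.35 to -1.04). Cxcr2 differed little, at 0.10 (-0.21 to 0.40) and 0.23 (0.10 to 0.35).

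Against immature neutrophils, 338 of 4659 genes (7.25%) were higher and 172 (3.69%) lower in members in both libraries. As the rule chose the gates on granule genes, this is a description. Genes lower in members included Orm1, Serpinb1a, Itgb2l, Cd177 and Cebpe, a factor of granule synthesis. Elane, a protease of primary granules, was lower in KD members by -3.98 (-4.59 to -3.43). Ctrl members had no Elane UMI, but the interval there reached 0.72, so Ctrl alone does not show it lower. The immature gate of Ctrl held 33 cells. Genes higher in members included the pattern recognition receptors Clec4n and Clec7a, Csf1, Icam1 and Nlrp3. Il1b was higher by 1.80 (1.65 to 1.96) in Ctrl and 1.88 (1.82 to 1.93) in KD, and Cxcl2 by 1.49 (1.39 to 1.58) and 1.33 (1.29 to 1.36).

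**Figure D5:**
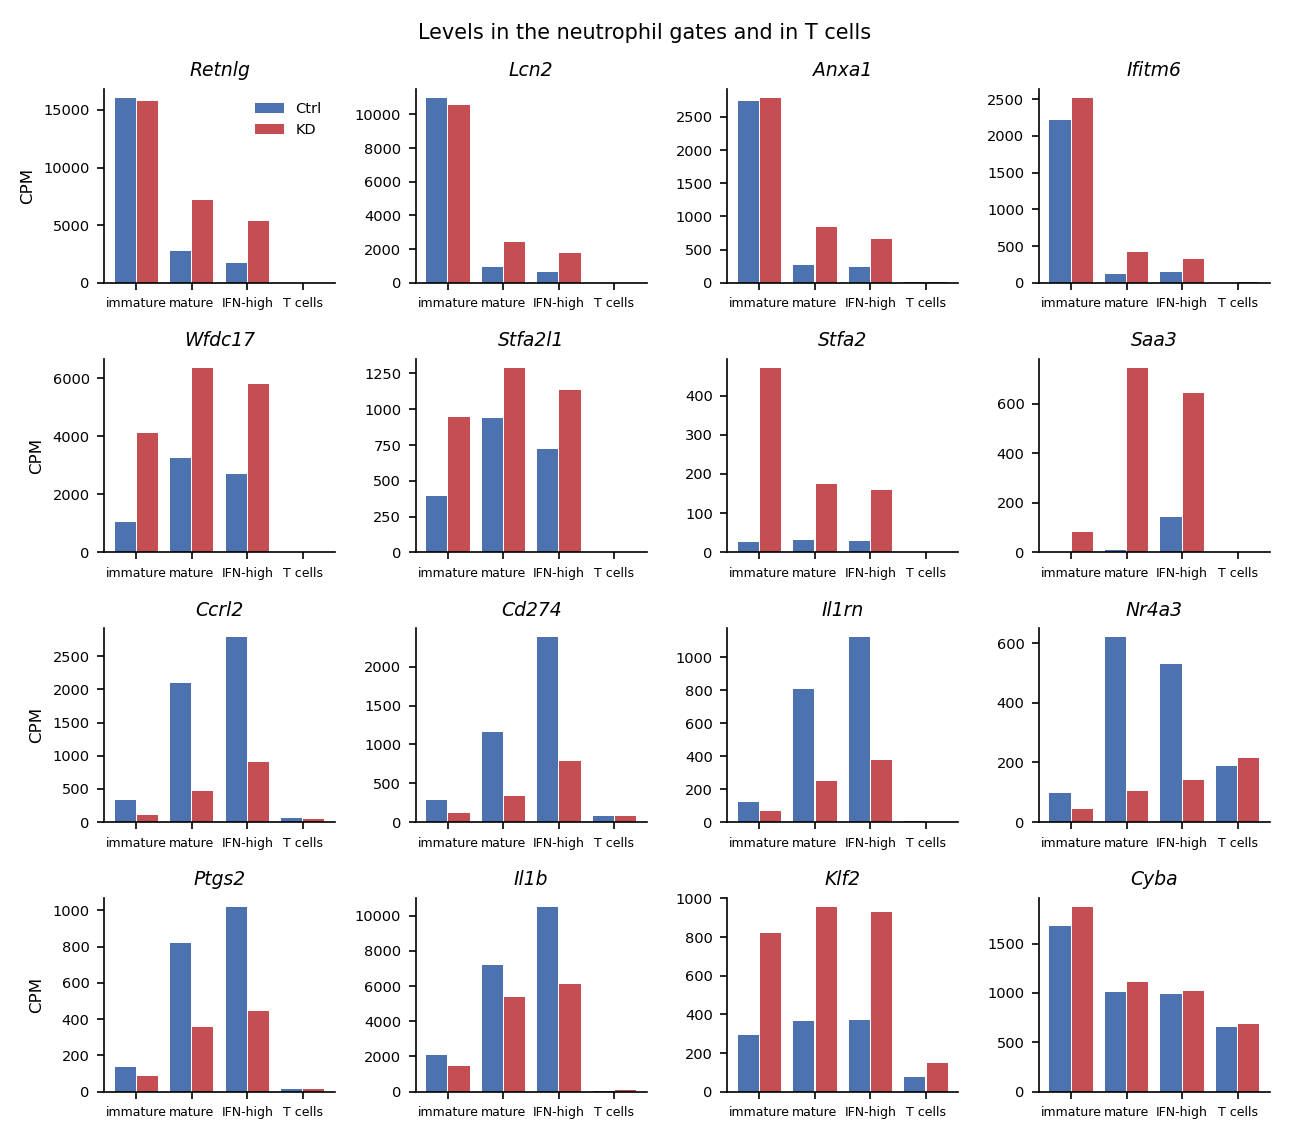
Bars are CPM of 16 genes in immature, mature and interferon-high (IFN-high) neutrophils and in T cells, for Ctrl and KD, each panel with its own linear axis from 0 and with no replicates. Retnlg, Lcn2, Anxa1 and Ifitm6 are highest in immature neutrophils at like levels in both libraries and differ between libraries in both mature gates, whereas Ccrl2 and Cd274 are highest in interferon-high neutrophils of Ctrl.

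Promoter motifs were counted for the genes past the limits that RefSeq promoters matched by symbol, 230 of 287 higher and 94 of 128 lower genes, with 2830 of 3575 measured genes as the ground. Each of the 4 motifs marked above, and also the further letters given below, was more frequent in promoters of lower genes than of all measured genes. The difference was small for GAS, and GAS and C/EBP were near their shares over all promoters. ISRE letters stood in 17 of 126 promoters of lower genes (13.5%) and 3.84% of those of measured genes, NF-kB letters in 12 (9.52%) and 4.75%, C/EBP letters in 15 (11.9%) and 8.67%, and GAS letters in 11 (8.73%) and 6.98%. The PU.1 letters GAGGAAGT, not marked above, stood in 8.73% and 4.11% (3.20% over all promoters). The letters TATAAA of the basal promoter stood in 10.3% and 8.27% (13.6% over all promoters). In the 296 promoters of higher genes the shares were 3.38% for ISRE, 3.38% for NF-kB, 7.77% for C/EBP and 6.76% for GAS, and over all 32851 promoters they were 3.44%, 3.945%, 10.8% and 8.30%. The shares are of promoters and not of genes. A gene with several starts gives several promoters, which can overlap, so a match can be counted more than once. The limit on interferon genes bears on which genes are lower, and these shares are descriptions.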

How the data were processed

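CD45+ cells from liver metastases were profiled in 2 libraries, Ctrl and KD, each pooled from 3 mice, by droplet-based 3′ RNA sequencing. The authors deposited, per library, a filtered matrix of UMI counts per gene and cell, not normalized. The submitters' processing notes name Cell Ranger 7.1.0, Seurat 5.1.0, R 4.4.1 and the build GRCm39, and the annotation version was not given in the sources used here. No cell annotation was used.

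The cell filter set a floor of 200 genes and ceilings of 10% mitochondrial UMIs, 30000 UMIs and 6000 genes, which left 9814 and 10185 cells. No doublet caller was run, and cells with a UMI of Cd3e, Cd79a or Adgre1 were left out of the gate. Counts were summed over the cells of a gate, divided by the summed UMIs and multiplied by 1000000 (CPM). Genes with at least 100 UMIs over both libraries were measured, and log2 ratios of at least 1 or at most -1 were counted. With 1 library per group no test was run. Intervals at 95% are exact (Poisson for counts, Clopper-Pearson for shares, conditional binomial for ratios). The fold of a gene at 0 in Ctrl was taken with 3 counts there, without the counting error of KD. Detection shares were taken after random thinning to 1000 UMIs, and cells with fewer were left out (9 Ctrl and 65 KD members). Genes named were the 12 highest and 12 lowest log2 ratios (0.5 CPM added for ranking) among genes with at least 200 UMIs whose CPM in the higher library reached 0.2 times that of the other class where it was highest, without mitochondrial, ribosomal, antigen receptor, sex-linked, unnamed and rule genes. From the 33 lists, the rule genes, stefins and NADPH oxidase genes were named (some genes are not reported here), and per list the 2 of highest count and 2 of largest ratio. Other list members, and Prnp, Ptprb, Stab2 and Gzma, were chosen after their values were seen. The members and lists were chosen with earlier results of these data known. Promoters came from RefSeq (GRCm38.p6). Alternatives changed the gate, the scaling, the thinning and the minimum counts. Work was done in Python 3.11.15 with numpy 2.4.6, scipy 1.17.1, pandas 2.3.3 and matplotlib 3.10.9, promoters were aligned with Biopython 1.88, and TMM factors came from edgeR 4.0.16 in R 4.3.3. The computation was tested on simulated data.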

Additional observations from a re-analysis of the deposited data

Results flagged for a closer look

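Some barcodes that met the marker rule were left out of the comparisons. Of 758 KD barcodes that failed the cell filter, 11 met the rule for mature neutrophils, all with over 10% mitochondrial UMIs. Of 602 such barcodes in Ctrl, 0 met it. The gate itself held 1129 KD and 128 Ctrl cells, so few were to be looked for in Ctrl.

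Nos2 differed in direction between cell classes. In mature neutrophils its log2 ratio, KD over Ctrl, was 1.98 (0.74 to 3.62) on 5 and 224 UMIs, and in macrophages it was -2.40 (-2.62 to -2.17) on 1110 and 194 UMIs. The neutrophil value rests on 5 Ctrl UMIs within the gate: it was 0.16 with no limit on interferon genes, and in interferon-high neutrophils it was -0.10 (-0.53 to 0.35) on 72 and 120 UMIs. With 1 library per group the difference between the classes was not tested.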

How the results depend on the processing

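The share of mature neutrophils among filtered cells was higher in KD under every alternative run. The difference, 9.78 percentage points, was 8.76 with S100a8 and S100a9 at 100 per 10000, 10.8 with no limit on interferon genes, 5.08 with none of the 5 interferon genes allowed, 6.51 without cells that carried a UMI of the 12-gene panel of other cell types, 34.3 as a share of neutrophils of the 3 gates and 8.66 with 0 UMIs of Ngp, Camp and Ltf, an alternative added after seeing the data.

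The count of genes with a log2 ratio of at least 1 was 287, and 122 with cells thinned to 1000 UMIs, 121 at a minimum of 200 UMIs, 1463 at 20 UMIs and 179 with a mean CPM of at least 30, also added later. The count at or below -1 was 128, and 219 with no limit on interferon genes, 58 with thinned cells, 77 at 200 UMIs and 442 at 20 UMIs. In the thinned and stricter settings fewer genes were measured (1675 and 2324).

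Ratios turned sign for Csta2 (-0.33) and Pycard (-0.15) among members with 0 of the 5 interferon genes and for Ccl5 without panel cells (-1.11) and without the 5% of members with most UMIs (-0.67). The cause was not tested. Of the 24 named genes, 19 stayed past the limit in all alternatives that gave a value. The circulating-type median ranged from 0.66 to 0.87 and the tumor-associated one from -0.85 to -0.45. No paired analysis was possible because each group held 1 library. Depth in Ctrl limits the ratios, since a gene at the minimum of 100 UMIs with equal levels has 8.09 UMIs there.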
